A study of Rattus norvegicus with 18 samples.

Results

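The 8 macrophage and leukocyte genes described here are Ptprc, Itgam, Lyz2, Cd68, Cd163, Cd74, C3 and Spp1, out of 32883 gene identifiers counted in rat gastrocnemius muscle. They were chosen by name, as genes known from white blood cells and tissue macrophages, with earlier results of these data known. They were found by their Ensembl identifier, and all 8 lay on the chromosome given with the name. RNA was measured by sequencing in 18 male Brown Norway rats of 1 substrain. Of these, 6 were young rats fed AL (Ad Libitum, food freely available) and aged 6 months, 6 were aged rats fed AL and aged 28 months, and 6 were aged CR rats (Caloric Restriction) of 28 months. From 2 months of age the CR rats received 55% of the intake of controls, as 1 ration each day, and all rats were housed singly. No CR group of 6 months was analysed here, so diet can be compared only at the old age, and ageing under CR only against young rats fed AL. The labels give each sample as a separate rat, and ground whole muscle was used, so muscle fibres, vessels, blood and connective tissue were measured together.

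Macrophages enter and reside in skeletal muscle, where they clear debris and take part in repair. Like other white blood cells they carry the surface phosphatase CD45, and they differ among themselves in what they take up and in whether they present antigen on class II molecules. Complement and osteopontin are secreted proteins that act on such cells, but both are also made by other cell types, so C3 and Spp1 mark a leukocyte less strictly than the other 6 genes.

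Positions are in Rnor_6.0, and levels are CPM, counts scaled to the size of the library and by TMM, a correction for differences in RNA composition between libraries. Total counts were 19940496 to 24474703 in young rats fed AL, 17335401 to 23351719 in aged rats fed AL and 20174316 to 27432767 in aged CR rats. All 8 genes passed the filter on low counts, and the lowest count of any of them in any library was 13, for Cd68. None shares an exon with another gene, although ENSRNOG00000036703 lies within the span of Itgam. Library numbers run in 1 block per group, 8883 to 8888 in young rats, 8773 to 8780 in aged rats fed AL and 8822 to 8828 in aged CR rats, so any handling by block and the group cannot be told apart. The column names of 3 libraries of aged CR rats pair a sample number with the library number of another rat, so that 2 columns carry sample number 15, and these are called by their library numbers 8826, 8827 and 8828. Defining markers of muscle and of other cell types were not analysed here, because no table used here pairs their names with the identifiers, so the labelled tissue was not checked and the part of other cell types in the results was not tested.

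A pair of libraries stood apart in these genes, rat 8 among the aged rats fed AL and library 8828 among the aged CR rats. The 8 genes took 0.224% of all counts in rat 8 and 0.104% in library 8828, against 0.00818% to 0.0504% in the other 16 libraries. The TMM factor was 1.44 in rat 8, against 0.838 to 1.14 in all other libraries, library 8828 included. Rat 8 was the highest of its group for Ptprc, Itgam, Lyz2, Cd68, Cd163 and Cd74, and so was library 8828, whereas neither was highest for C3 or Spp1. The comparisons between groups were therefore fitted with all 18 libraries and with 16, without this pair. The pair was singled out in an earlier account of these counts, with values such as these known, and it holds the highest values of 6 of the 8 genes in both aged groups. Leaving it out therefore narrows the spread of these genes by construction, more than that of genes in which it does not stand apart. The p-values, counts and overlaps of the second fit, and their shares over all genes, are given as a description of the other 16 libraries and are not a test of age or diet. In bulk muscle, fewer cells of a type and less RNA per cell cannot be told apart.

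**Figure D1:**
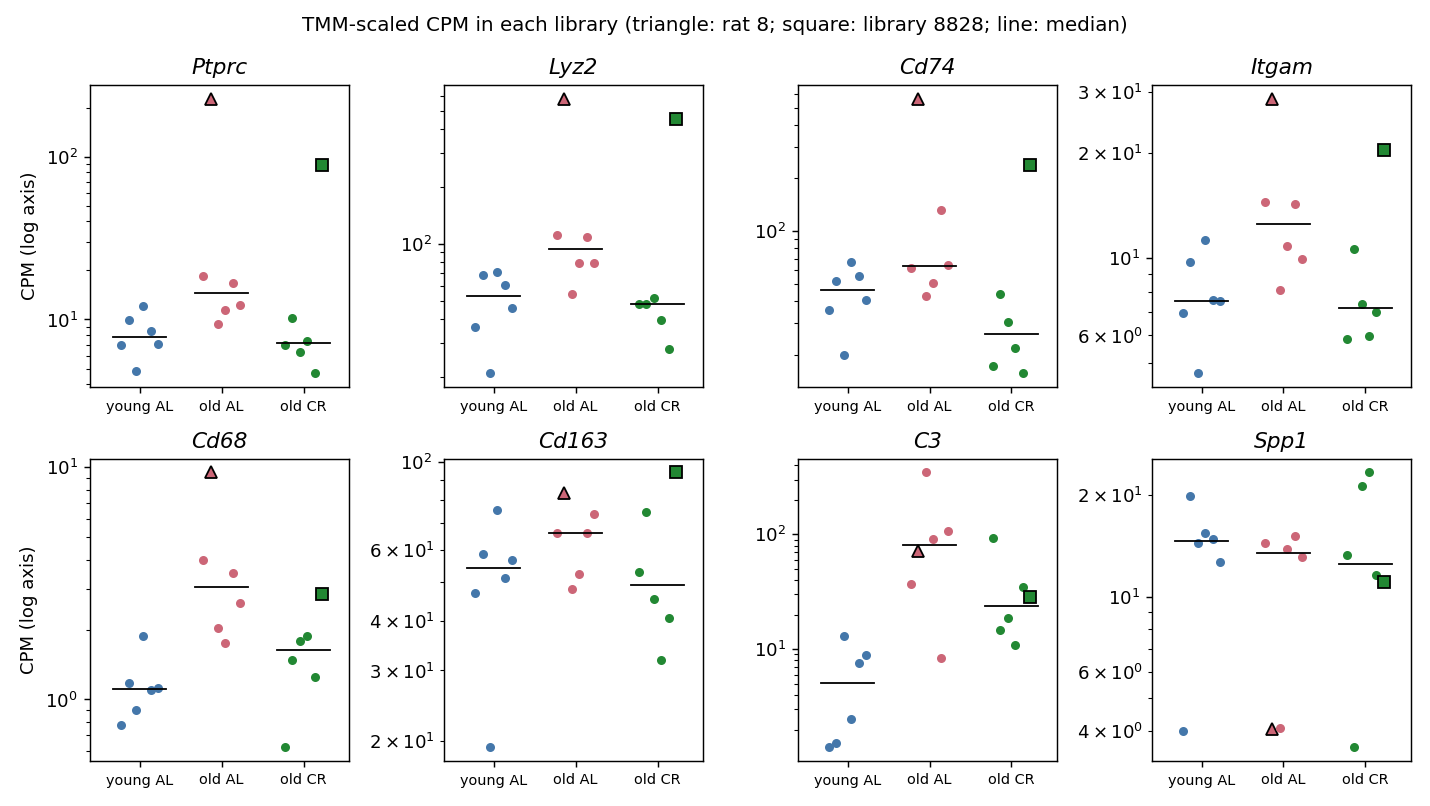
Level of each of the 8 genes in every library, in TMM-scaled CPM on a log axis, with 1 panel per gene and 1 point per library. Rat 8 and library 8828 are the high points for Ptprc, Lyz2 and Cd74, at 227, 581 and 563 CPM and at 88.4, 452 and 238 CPM, whereas for C3 the young rats lie at 1.40 to 12.9 CPM and most aged rats above them.

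Upstream sequences are shown for the 5 genes that hold the motif GAGGAA there and, beside them, for C3, which had the largest fold change with age and does not hold it. Each is the 200 bases before the RefSeq start site, read 5′ to 3′ on the strand of the gene in GRCr8, a later build than that of the counts. Capitals mark GAGGAA or its reverse complement, a short form of the purine-rich element bound by ETS factors such as PU.1, which is known from myeloid promoters. They lie at chr13:52259747-52259946 (− strand) for Ptprc, chr1:192089392-192089591 (+) for Itgam, chr10:54882442-54882641 (−) for Cd68, chr7:54798012-54798211 (−) for Lyz2, chr18:56527006-56527205 (+) for Cd74 and chr9:2201340-2201539 (−) for C3.
Ptprc: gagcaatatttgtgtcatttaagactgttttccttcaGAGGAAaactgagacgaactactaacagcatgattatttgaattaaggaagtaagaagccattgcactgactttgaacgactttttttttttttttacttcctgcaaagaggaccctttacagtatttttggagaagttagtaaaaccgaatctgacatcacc
Itgam: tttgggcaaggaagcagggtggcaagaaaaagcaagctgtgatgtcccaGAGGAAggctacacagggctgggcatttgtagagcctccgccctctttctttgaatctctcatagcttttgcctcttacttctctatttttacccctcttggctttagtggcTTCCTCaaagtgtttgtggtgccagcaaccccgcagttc
Cd68: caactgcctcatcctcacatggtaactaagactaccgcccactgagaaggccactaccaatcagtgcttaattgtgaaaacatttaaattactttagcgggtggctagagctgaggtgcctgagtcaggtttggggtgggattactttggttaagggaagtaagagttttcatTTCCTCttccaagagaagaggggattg
Lyz2: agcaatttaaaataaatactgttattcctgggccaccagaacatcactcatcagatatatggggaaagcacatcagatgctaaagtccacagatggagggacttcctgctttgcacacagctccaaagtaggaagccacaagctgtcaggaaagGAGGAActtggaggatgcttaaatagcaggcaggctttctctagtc
Cd74: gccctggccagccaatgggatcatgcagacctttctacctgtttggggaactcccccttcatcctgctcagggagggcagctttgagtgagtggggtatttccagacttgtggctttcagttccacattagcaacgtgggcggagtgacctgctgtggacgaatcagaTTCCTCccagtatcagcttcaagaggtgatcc
C3: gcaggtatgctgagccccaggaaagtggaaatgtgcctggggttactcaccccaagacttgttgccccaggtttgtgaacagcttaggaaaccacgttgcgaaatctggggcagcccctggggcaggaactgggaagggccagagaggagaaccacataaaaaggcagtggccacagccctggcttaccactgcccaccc

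All 8 names were found among the RefSeq promoters, on the same chromosome as in the counts, and 7 of the 8 on the same strand, C3 being the exception. GAGGAA on either strand lay in the 200 bases of 5 of the 8 genes, namely Ptprc, Itgam, Cd68, Lyz2 and Cd74, against 19.01% of 33469 promoters of the same length. It began 163 bases before the start site in Ptprc, 151 and 39 in Itgam, 27 in Cd68, 46 in Lyz2 and 32 in Cd74. CCAAT lay in 3 of the 8, Cd68, Cd163 and Cd74, against 29.18% of promoters, and TGANTCA in Cd68 alone, against 4.97%. TATAAA was in 0 of the 8, against 10.39%. Both strands were searched for each motif, and in Cd68 and Cd74, which hold more than 1 of them, the matches did not overlap. A match is a description of the letters in this window and not a binding site.

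Per kilobase of exon, the genes differed widely in level in young rats fed AL. Median CPM per kb was 44.8 for Lyz2, 33.5 for Cd74, 12.7 for Cd163 and 9.64 for Spp1. The other 4 lay close to 1, at 1.54 for Ptprc, 1.02 for Itgam, 0.974 for C3 and 0.897 for Cd68.

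With ageing under AL, the question is which of these genes were higher at 28 than at 6 months. C3 and Cd68 were called higher, by 4.26 (SE 0.81) and 1.74 (SE 0.40) on the log2 scale, and no gene of the 8 was called lower. The log2 fold change was above 0 in 7 of the 8, against 51.0% of all genes, and below 0 in 1, Spp1, at −0.33. Calls required a fold change of at least 1.5 together with an adjusted p no larger than 0.05 in the edgeR quasi-likelihood test over 14646 genes. By that rule 1.88% of all genes were called higher, and 2.60% without rat 8 and library 8828, when the same 2 of the 8 were called. The median log2 fold change of the 8 was 1.74, against 0.01 over all genes, and 0.68 against 0.00 without the pair of libraries. At an unadjusted p under 0.05 there were 6 of the 8, against 22.3% of all genes, and 5 of the 8 without the pair, against 24.1%. In none of the 8 did the groups separate without overlap, as they did for 2.40% of all genes.

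For aged CR rats against young rats fed AL, 0 of the 8 were called, against 1.98% of all genes in either direction, and 0 of the 8 without the pair of libraries, against 3.11%. At an unadjusted p under 0.05 there was 1 of the 8, C3, against 19.3% of all genes, and 2 of the 8 without the pair, C3 and Cd74, against 20.8%. DESeq2 gave no adjusted p for Ptprc and Lyz2, and of the other genes it called 1, C3, against 4.13% of the genes with an adjusted p. The median log2 fold change of the 8 was 0.47 with all libraries and −0.09 without the pair, against 0.00 over all genes in both fits. No gene of the 8 had groups without overlap, against 3.26% of all genes.

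For aged CR against aged rats fed AL, the diet comparison at 28 months, 0 of the 8 were called with all libraries, against 1.38% of all genes in either direction. Without rat 8 and library 8828, 3 of the 8 (Ptprc, Lyz2 and Cd74) were past the thresholds and lower, beside 1.47% of all genes, which is no like background, since the libraries left out were the highest of their groups for these 3 genes. The median log2 fold change of the 8 was −0.92 with all libraries and −0.96 without the pair, against −0.02 and 0.00 over all genes. These near-equal medians do not show stability, and none was taken with only 1 of the pair left out. Without rat 8 alone, Ptprc, Lyz2 and Cd74 stood at 0.63, 0.38 and −0.18, and without library 8828 alone at −2.79, −1.97 and −2.56. C3 moved little, to −1.81 and −1.68. At an unadjusted p under 0.05 there were 2 of the 8 with all libraries, Cd68 and C3, against 15.3% of all genes. Without the pair there were 6 of the 8, all but Cd163 and Spp1, beside 21.3% of all genes, with the same limit. DESeq2 again gave no adjusted p for Ptprc and Lyz2, and of the other genes it called 1, Cd68, against 2.89% of the genes with an adjusted p. With all libraries 2.06% of all genes had groups without overlap and 0 of the 8 did, and without the pair 7.33% did, with 1 of the 8, Lyz2. The 3 comparisons share groups, so their values are given side by side and are not independent of each other.

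**Figure D2:**
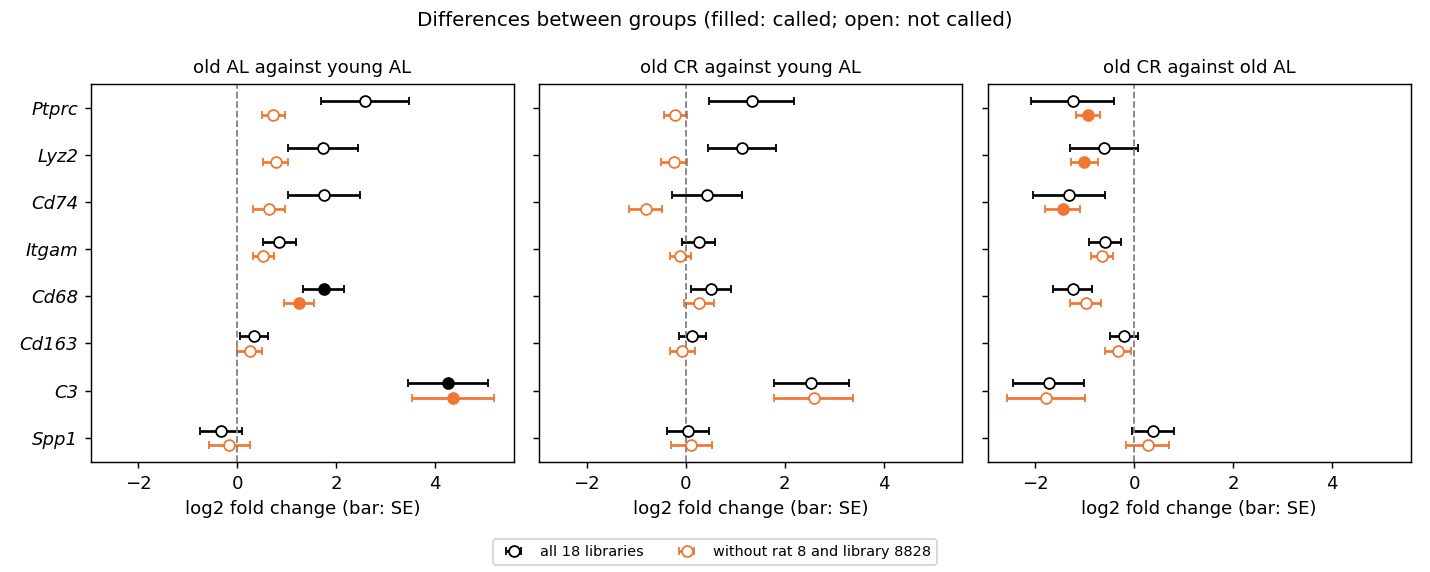
Log2 fold change of each of the 8 genes, with bars of 1 SE, in the 3 comparisons, from the edgeR fit of all 18 libraries and from the fit without rat 8 and library 8828. Both fits call C3 and Cd68 higher with age under AL, and Ptprc, Lyz2 and Cd74 pass the thresholds as lower in aged CR than aged rats fed AL in the second fit only, from which the highest library of each group for these genes was removed.

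Ptprc (ENSRNOG00000000655, chr13:55061562-55173692, − strand) encodes CD45, the surface phosphatase of all nucleated blood cells. It ran from 4.85 CPM through a median of 7.78 to 12.0 in young rats fed AL, from 9.36 through 14.5 to 227 in aged rats fed AL, and from 4.67 through 7.17 to 88.4 in aged CR rats. The highest values were rat 8 and library 8828, and without them the aged rats fed AL lay at 9.36 to 18.4 and the aged CR rats at 4.67 to 10.2, with overlap between all 3 groups. Aged rats fed AL differed from young rats by 2.58 (SE 0.89) on the log2 scale, with an edgeR adjusted p of 0.0979, and by 0.73 (SE 0.23) with an adjusted p of 0.0602 without the pair.

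The Ptprc difference between the diets depended on those libraries. It was −1.24 (SE 0.84), with an edgeR adjusted p of 0.528, over all libraries, and −0.94 (SE 0.24), with an adjusted p of 0.0322, without the pair, which held the highest Ptprc of each group. It was 0.63 without rat 8 alone and −2.79 without library 8828 alone. In aged CR against young rats it was 1.34 (SE 0.86) with all libraries and −0.21 (SE 0.23) without the pair, and neither was called. For age under AL, Ptprc was called higher without library 8828 alone, which is in neither of these groups, with an adjusted p of 0.0366. The log2 fold change stayed at 2.58 there and the SE fell from 0.89 to 0.69. Without rat 8 alone the Ptprc difference with age was 0.73 (SE 0.63, adjusted p = 0.542) and was not called.

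Itgam (ENSRNOG00000019728, chr1:199495298-199623960, + strand) encodes CD11b, the integrin chain of the complement receptor of macrophages, neutrophils and natural killer cells. Its CPM was 4.67 at the lowest, 7.55 at the median and 11.3 at the highest in young rats fed AL, with 8.09, 12.5 and 28.6 in aged rats fed AL and 5.85, 7.20 and 20.4 in aged CR rats. The groups overlapped, and the highest value of each aged group was again rat 8 or library 8828. Aged rats fed AL differed from young rats by 0.85 (SE 0.33) on the log2 scale (edgeR adjusted p = 0.144), and by 0.53 (SE 0.21, adjusted p = 0.130) without the pair. Aged CR rats differed from aged rats fed AL by −0.59 (SE 0.33, adjusted p = 0.431), and by −0.64 (SE 0.22, adjusted p = 0.102) without the pair. That difference was −0.25 without rat 8 alone and −0.96 without library 8828 alone, neither of them called. Against young rats, aged CR rats differed by 0.26 (SE 0.33), and by −0.11 (SE 0.21) without the pair.

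Lyz2 (ENSRNOG00000005825, chr7:60335969-60341264, − strand) encodes lysozyme, the cell-wall-splitting enzyme secreted by macrophages and neutrophils. Young rats fed AL had 20.8 CPM at the lowest, a median of 53.3 and 71.1 at the highest. Aged rats fed AL had 54.2, 94.1 and 581, and aged CR rats 27.8, 48.3 and 452. Without rat 8 and library 8828 the aged rats fed AL, at 54.2 to 111 CPM, all lay above the aged CR rats, at 27.8 to 51.6, and both overlapped the young rats. In that fit Lyz2 was 2.00-fold lower in aged CR than aged rats fed AL (SE 0.28 on the log2 scale, edgeR adjusted p = 0.0440), after the highest Lyz2 value of each of these groups had been removed.

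With all 18 libraries that Lyz2 difference was −0.60 (SE 0.68, edgeR adjusted p = 0.730). It was 0.38 without rat 8 alone, and −1.97 with an adjusted p of 0.0490 without library 8828 alone. Aged rats fed AL differed from young rats by 1.74 (SE 0.70, adjusted p = 0.154), and by 0.77 (SE 0.26, adjusted p = 0.0788) without the pair. That comparison was called without library 8828 alone, which is in neither of its groups, with an adjusted p of 0.0443. The log2 fold change stayed at 1.74 there and the SE fell from 0.70 to 0.49. Without rat 8 alone the Lyz2 difference with age was 0.77 (SE 0.59, adjusted p = 0.481) and was not called. Aged CR rats differed from young rats by 1.14 (SE 0.69) with all libraries and by −0.23 (SE 0.26) without the pair, and neither was called.

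Cd68 (ENSRNOG00000037563, chr10:56268720-56270640, − strand) encodes macrosialin, a glycoprotein of lysosomes that is abundant in macrophages. It is the least counted of the 8, with 13 to 244 counts per library. Its level was 0.78 to 1.88 CPM in young rats fed AL with a median of 1.11, 1.75 to 9.50 in aged AL rats (median 3.04), and 0.62 to 2.84 in aged CR rats with a median of 1.63. Of the aged rats fed AL, only rat 10, at 1.75 CPM, lay below the highest young rat, rat 4 at 1.88. Cd68 rose in aged against young rats fed AL, 3.35-fold (log2 1.74, SE 0.40, edgeR adjusted p = 0.0217), and 2.38-fold without the pair of libraries (log2 1.25, SE 0.30, adjusted p = 0.0167). Leaving out young rat 1 ended the call, at a log2 fold change of 1.65 (SE 0.43) and an adjusted p of 0.0511.

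In aged CR rats, Cd68 differed from young rats by 0.50 (SE 0.40, edgeR adjusted p = 0.525) on the log2 scale, and by 0.27 (SE 0.31) without the pair. Against aged rats fed AL it differed by −1.24 (SE 0.40, adjusted p = 0.118), and by −0.98 (SE 0.31, adjusted p = 0.0777) without the pair. The aged CR rats overlapped both other groups.

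Cd163 (ENSRNOG00000010253, chr4:156752082-156785467, + strand) encodes the scavenger receptor that takes up haemoglobin bound to haptoglobin and marks resident macrophages. It had 19.3 CPM at the lowest, 54.0 at the median and 75.6 at the highest in young rats fed AL, with 48.0, 66.2 and 83.6 in aged rats fed AL and 31.9, 49.1 and 93.9 in aged CR rats. All 3 groups overlapped over most of their range. The log2 differences were 0.34 (SE 0.27) between aged and young rats fed AL, 0.14 (SE 0.27) between aged CR and young rats and −0.20 (SE 0.27) between the aged groups, with edgeR adjusted p-values of 0.493, 0.829 and 0.782. Without the pair of libraries they were 0.26 (SE 0.25), −0.063 (SE 0.26) and −0.32 (SE 0.27), with adjusted p-values of 0.581, 0.918 and 0.530. Rat 8 was 1.27-fold and library 8828 2.08-fold above the median of the other 5 libraries of its group.

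Cd74 (ENSRNOG00000018735, chr18:56071478-56080849, + strand) encodes the invariant chain, which guides class II molecules to the compartment where they load antigen. In young rats fed AL it ran from 19.9 through a median of 46.5 to 67.1 CPM, in aged rats fed AL from 43.2 through 63.1 to 563, and in aged CR rats from 15.6 through 26.2 to 238. After rat 8, the highest aged rat fed AL was rat 11 at 131 CPM. The other 5 aged CR rats lay at 15.6 to 44.0 CPM, of which only rat 14 reached the range of the aged rats fed AL, which began at 43.2.

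Aged and young rats fed AL differed in Cd74 by 1.75 (SE 0.73, edgeR adjusted p = 0.166) on the log2 scale, and by 0.64 (SE 0.32, adjusted p = 0.238) without the pair. Between the aged groups the difference was −1.32 (SE 0.72, adjusted p = 0.415) with all libraries. Without the pair, which held the highest Cd74 of each group, it was −1.44 (SE 0.35, adjusted p = 0.0228), or 2.72-fold lower in aged CR rats, and without library 8828 alone −2.56 (adjusted p = 0.0305). Without rat 8 alone the difference was −0.18 (SE 0.59, adjusted p = 0.888). Against young rats, aged CR rats differed by 0.44 (SE 0.71) with all libraries and −0.81 (SE 0.33, adjusted p = 0.171) without the pair, so its sign turned with those libraries.

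**Figure D3:**
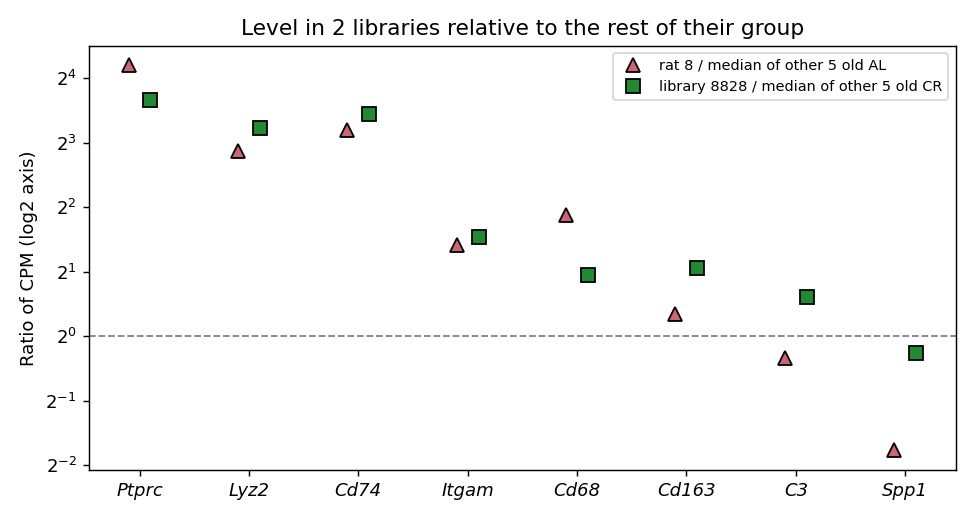
Level of each of the 8 genes in rat 8 and in library 8828, divided by the median of the other 5 libraries of the same group, on a log axis. Ptprc, Cd74 and Lyz2 lie highest in both, at 18.4-, 9.12- and 7.30-fold in rat 8 and at 12.6-, 10.9- and 9.36-fold in library 8828, and Spp1 lies below 1 in both.

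The pair of libraries did not raise the 8 genes evenly. In rat 8, Ptprc was 18.4-fold, Cd74 9.12-fold and Lyz2 7.30-fold above the median of the other 5 aged rats fed AL, whereas Cd68 was 3.66-fold and Itgam 2.65-fold above it. In library 8828 the same order of size held for Ptprc (12.6-fold), Cd74 (10.9-fold) and Lyz2 (9.36-fold), against 2.91-fold for Itgam and 1.92-fold for Cd68. Of all genes, 3.76% lay over 5-fold in rat 8 and 2.31% in library 8828, and 3 of the 8 did in each. The pair was singled out with values such as these known, so these shares are a description and not a test. Over 2-fold lay 15.2% of all genes in rat 8 and 8.43% in library 8828, and 5 of the 8 in each, with the same limit. The median fold over all genes was 1.01 in rat 8 and 0.975 in library 8828, but TMM scaling itself sets the typical gene near 1.

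Ratios of counts within a library do not depend on its scaling. Per Cd163 count, Ptprc had 0.124 to 0.252 counts in young rats, 0.166 to 0.279 in the other 5 aged rats fed AL and 2.71 in rat 8. Among aged CR rats the ratio was 0.115 to 0.230, with 0.942 in library 8828. The Ptprc ratio of these libraries thus lay outside the range of the other 16, while the groups otherwise overlapped. For Cd68 and Itgam per Cd163 count, rat 8 lay above all others, at 0.114 and 0.342, but library 8828, at 0.0303 and 0.218, lay within the range of the other 16 libraries.

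Per Cd163 count, Cd74 had 0.720 to 1.09 counts in young rats and 0.871 to 1.98 in the other 5 aged rats fed AL. It had 0.323 to 0.686 in the other 5 aged CR rats. Rat 8 had 6.73 and library 8828 had 2.53. Lyz2 per Cd163 count was 0.776 to 1.18 in young rats, 1.07 to 1.68 in the other aged rats fed AL and 0.648 to 1.24 in the other aged CR rats, and these 3 ranges overlapped. Rat 8 had 6.94 and library 8828 had 4.81, above every other library.

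C3 (ENSRNOG00000046834, chr9:9721105-9747167, + strand) encodes the central component of complement, a plasma protein made chiefly by liver and also by macrophages, fibroblasts and fat cells. Liver genes were not analysed here, so their part in the C3 values was not tested. It had the largest log2 fold changes of the 8 between each aged group and young rats. Young rats fed AL had 1.40 to 12.9 CPM with a median of 5.06, those aged under AL 8.32 to 347 with a median of 81.4, and aged CR rats 10.8 to 93.4 with a median of 23.6. Rat 11, at 8.32 CPM, was the only aged rat fed AL within the range of the young rats, and library 8826, at 10.8, the only aged CR rat within it.

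C3 rose in aged against young rats fed AL, 19.1-fold (log2 4.26, SE 0.81, edgeR adjusted p = 0.00722), and 20.5-fold without rat 8 and library 8828 (log2 4.36, SE 0.83, adjusted p = 0.00518). It stayed called without each library in turn, and without rat 9, the highest at 347 CPM, the log2 fold change was 3.45 with an adjusted p of 0.0167. In aged CR against young rats it was 5.80-fold (log2 2.54, SE 0.76), which missed the threshold at an adjusted p of 0.0786, and without rat 13, the highest of that group at 93.4 CPM, it was 1.90 on the log2 scale. DESeq2 over all libraries and edgeR on these groups alone (adjusted p = 0.0345) did call it. Between the aged groups the difference was −1.72 (SE 0.72, adjusted p = 0.251), and it was −0.91 without rat 9 and −2.36 without rat 13, neither of them called.

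**Figure D4:**
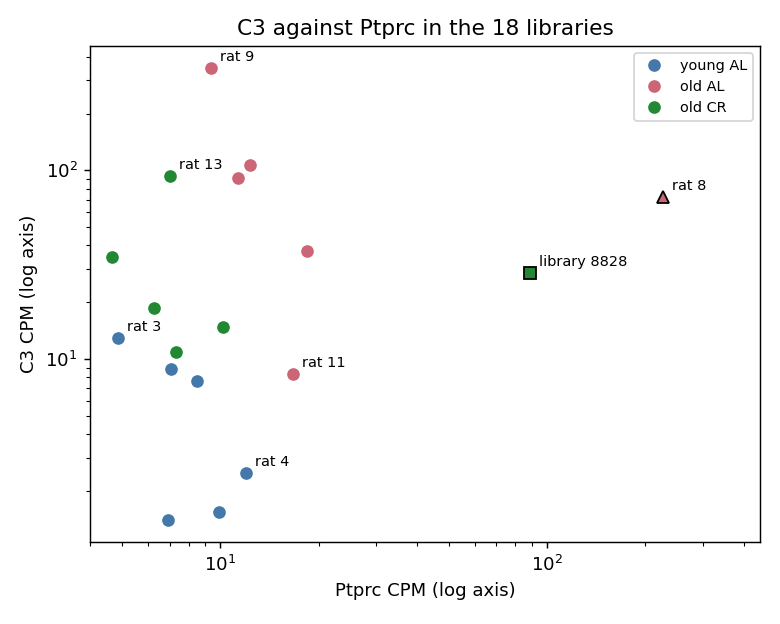
C3 against Ptprc in TMM-scaled CPM, both on log axes, with 1 point per library in the colour of its group. Rats 9 and 13, with the highest C3 of their groups at 347 and 93.4 CPM, have Ptprc at 9.36 and 7.0 CPM, the lowest and near the median of their groups, and rat 8 and library 8828, with the highest Ptprc, have C3 at 71.8 and 28.5 CPM.

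Spp1 (ENSRNOG00000043451, chr14:6673686-6679901, − strand) encodes osteopontin, a secreted matrix protein made by activated macrophages, injured muscle and bone. Its CPM was 4.02 at the lowest, 14.6 at the median and 19.8 at the highest in young rats fed AL, with 4.05, 13.5 and 15.1 in aged rats fed AL and 3.59, 12.5 and 23.3 in aged CR rats. The groups overlapped over nearly their whole range. The log2 differences were −0.33 (SE 0.42) between aged and young rats fed AL, 0.05 (SE 0.42) between aged CR and young rats and 0.38 (SE 0.42) between the aged groups, with edgeR adjusted p-values of 0.692, 0.968 and 0.725. Without the pair of libraries they were −0.16 (SE 0.41), 0.11 (SE 0.41) and 0.27 (SE 0.43), with adjusted p-values of 0.861, 0.909 and 0.767. Looking at the values, 4 libraries (rats 1, 8, 9 and 14), from all 3 groups, lay at 3.59 to 4.10 CPM, and the other 14 lay at 11.1 to 23.3.

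Across libraries, 5 of the genes varied together in log2 CPM. Over all 18 libraries, the 10 pairs among Ptprc, Cd68, Lyz2, Itgam and Cd74 had a Pearson r of 0.80 to 0.97, as a description of libraries that also share group and scaling. Without rat 8 and library 8828 (n = 16) r was 0.65 to 0.93, and with each group centred on its own mean it was 0.47 to 0.88. With Ptprc, Lyz2, Itgam and Cd74, Cd163 had r of 0.66 to 0.81 over 18 libraries and, with groups centred and without the pair, 0.74 to 0.81, where Cd68 had 0.80 to 0.85 and 0.47 to 0.61. The order of Cd163 and Cd68 thus turned between these sets of values, which differ both in the libraries and in the centring. Without the pair and uncentred, Cd163 was lower than Cd68 with Ptprc (0.73 against 0.76). With Lyz2 (0.78 against 0.71), Itgam (0.80 against 0.76) and Cd74 (0.69 against 0.65) it was higher. Between Cd163 and Cd68 r was 0.54 over 18 libraries and 0.27 centred. In the young rats, rat 4 was the highest for all 5 and for Cd163, and rat 3 the lowest for Ptprc, Cd163, Lyz2, Itgam and Cd74.

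C3 and Spp1 did not follow the others. For C3 against the other 7 genes r was −0.23 to 0.34 over 18 libraries and −0.17 to 0.25 over 16, and with groups centred it was negative with each of them, at −0.68 to −0.15. Rat 3 had the highest C3 of the young rats, and rat 9, the lowest of the aged rats fed AL for Ptprc, Cd163, Lyz2, Itgam and Cd74, had the highest C3 of all. For Spp1, r was −0.32 to −0.16 over 18 libraries and −0.17 to 0.19 over 16, and with groups centred it was −0.15 to 0.36, so its sign depended on the libraries and the centring.

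**Figure D5:**
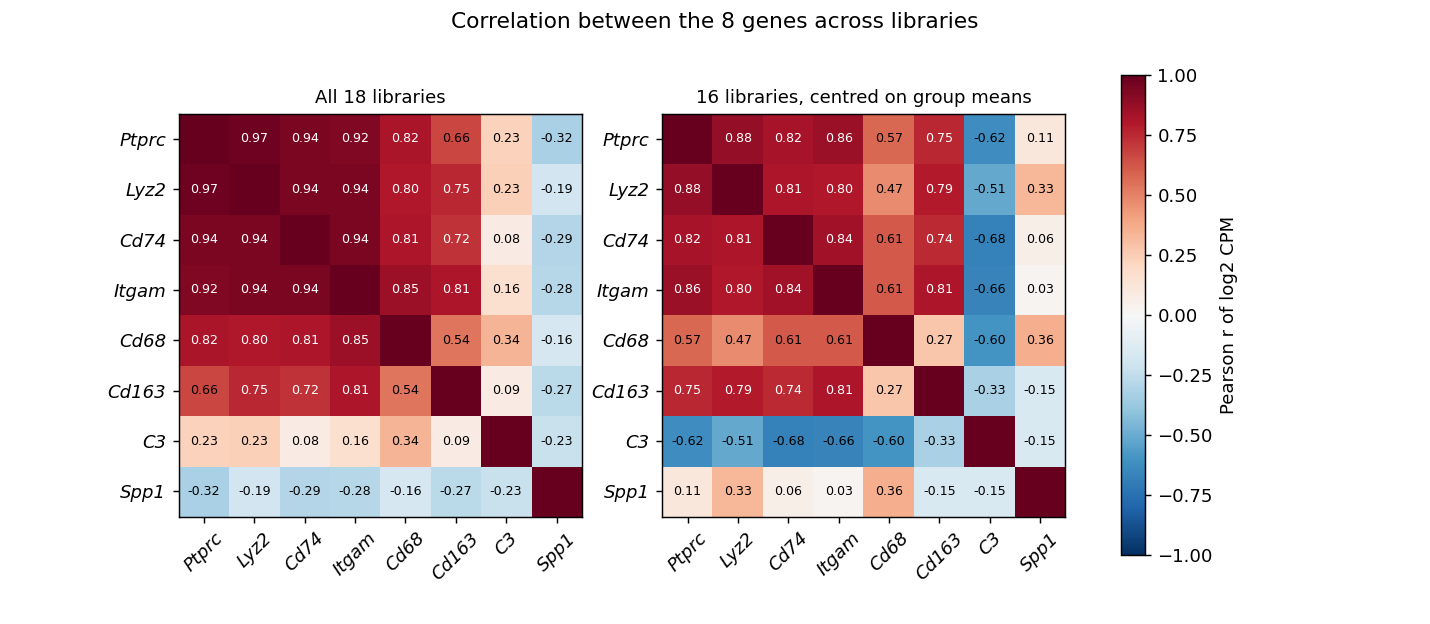
Pearson r of log2 CPM between the 8 genes, over all 18 libraries and over the 16 without rat 8 and library 8828 with each group centred on its mean. Ptprc, Cd68, Lyz2, Itgam and Cd74 lie at 0.80 to 0.97 and at 0.47 to 0.88. Over the 16 libraries with groups centred, Cd163 lies closer than Cd68 to Ptprc, Lyz2, Itgam and Cd74. C3 lies below 0 with each other gene there.

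The gene nearest to each of the 8 was taken as the one of the 14646 with the highest r over the 18 libraries. That of Cd74 was ENSRNOG00000032844 (chr20:4127644-4132616), with r = 0.994, and 0.983 without the pair of libraries. Its CPM was 8.81 to 28.8 in young rats, 22.1 to 262 in aged rats fed AL and 7.75 to 120.2 in aged CR rats, with the highest values in rat 8 and library 8828. That of Ptprc was ENSRNOG00000004192 (chr13:89774764-89796113), with r = 0.990, and 0.952 without the pair, and that of Lyz2 was Ptprc itself, with r = 0.971. C3 had its nearest gene outside the 8 at r = 0.978, and 0.986 without the pair. There were 215 genes with r over 0.9 for Ptprc, 155 for Lyz2, 93 for Cd74, 72 for Itgam and 52 for C3, but 6 for Cd163, 3 for Cd68 and 0 for Spp1.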

How the data were processed

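Total RNA of gastrocnemius muscle was depleted of ribosomal RNA and sequenced in pairs of reads from strand-specific libraries. The deposited values are raw counts per gene, made by the authors with cutadapt 1.2.1, STAR 2.3.0e on Rnor_6.0 and featureCounts 1.6.4 with Ensembl release 96. The head of the table gives no strand option, so antisense reads cannot be told apart.

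From the counts, edgeR 4.0.16 (R 4.3.3) was run on all 18 libraries in 1 fit, with filterByExpr (14646 genes kept; 14617 without rat 8 and library 8828), TMM scaling and the quasi-likelihood test, adjusted by Benjamini-Hochberg over all genes kept. The study itself used DESeq2, run here (1.42.0) as an alternative. Standard errors follow from the log2 fold change and the F statistic. Log2 CPM for correlations had a prior count of 2. The members and lists were chosen with earlier results of these data known, and the rule for named genes takes all 8 plus the nearest genes, of which the 2 with the highest r are printed. Lists of markers of other cell types by symbol were not analysed here, nor were protein sequences. The names of the 8 came with their identifiers. Libraries 8826, 8827 and 8828 were used as replicates of their group without a rat number. No interval was computed for single counts.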

Additional observations from a re-analysis of the deposited data

Results flagged for a closer look

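Within a group of 6 libraries, the gap between the most extreme value and its nearest neighbour was divided by the whole range of the group. In 12 of the 24 groups of CPM values this ratio exceeded the critical value of Dixon's test. For normally distributed values about 1 group in 20 does so, but these CPM were not logged and no share over all genes was computed. Rat 8 and library 8828 had been singled out with values such as these known, so the 12 are a description and not a test. Rat 8, the highest of the aged rats fed AL, did so for Ptprc (0.958), Lyz2 (0.892), Cd74 (0.830), Cd68 (0.714) and Itgam (0.688). Library 8828, the highest of the aged CR rats, did so for Lyz2 (0.944), Ptprc (0.934), Cd74 (0.872) and Itgam (0.672). The genes so marked in each library vary together and are not independent of each other.

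The other 3 were young rat 4 for Cd68 (0.637), at 1.88 CPM against 1.18 for the next, rat 9 among aged rats fed AL for C3 (0.709), at 347 against 107 CPM, and rat 13 among aged CR rats for C3 (0.712), at 93.4 against 34.6 CPM. Rats 9 and 13 were not the highest of their groups for any of the other 7 genes.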

How the results depend on the processing

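Of 618 values of the 24 gene-by-comparison results under 18 omissions of a library and 8 other settings, 591 kept direction and side of the threshold, 16 turned direction, 10 gained a call and 1 lost it. Genes called over all were 497 (aged against young AL), 290 (aged CR against young) and 202 (aged CR against aged AL). DESeq2 gave 988, 703 and 444, and edgeR on only the groups compared 258, 441 and 130. At least 10 counts in every library gave 330 for the first, no filter 129 for the last, and the fit without rat 8 and library 8828 gave 455 and 477 for both comparisons of aged CR rats. Leaving out each library gave 288 to 678, 185 to 578 and 69 to 385.

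Of the 8 genes, 2, 0 and 0 were called. Leaving out each library gave 1 (without rat 1, with 329 genes called over all) to 4 (without library 8828, with 678) for the first. For the last it gave 0 to 2, the 2 without library 8828, with 361 over all. An adjusted p of 0.01 gave 1 for the first, and no count over all genes is given at that limit. DESeq2 gave 1 for the second (703 over all) and 1 for the last (444). With edgeR on only the groups compared, 1 was called for the second (441 over all). The fit without the pair gave 3 for the last (477 over all, no like background). Without the pair, log2 fold changes of aged CR against young rats turned to −0.21 (Ptprc), −0.063 (Cd163), −0.23 (Lyz2), −0.11 (Itgam) and −0.81 (Cd74). Leaving out each library gave ranges there of −0.21 to 1.57, −0.067 to 0.28, −0.23 to 1.36, −0.11 to 0.39 and −0.81 to 0.66, and −0.16 to 0.25 for Spp1. Between the aged groups it gave −2.79 to 0.63 for Ptprc, −1.97 to 0.38 for Lyz2 and −2.56 to −0.18 for Cd74. For Itgam it gave −0.96 to −0.25 there, for Cd68 −1.47 to −0.74 and for C3 −2.36 to −0.91. The cause was not tested. DESeq2 gave no adjusted p for Ptprc and Lyz2.

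No paired analysis was possible because the labels number the rats 1 to 18 and the groups share no number. At 13 to 244 counts, Cd68 is the least counted of the 8, and 6 rats per group limit every comparison.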
